A study of Homo sapiens with 6 samples.

Results

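The genes described here are 34 genes of the hypoxia response and of glycolysis, taken from a fixed list by RefSeq symbol, out of the 40448 Entrez gene IDs in the deposited tables. They were measured by RNA sequencing in clones of KYSE150, a widely used cell line from a human squamous carcinoma of the oesophagus, comparing clones with vector and clones with NCCRP1. The 3 mock clones (1, 4 and 5) were stably transfected with the pIRES2-EGFP vector, and the 3 NCCRP1 clones (1, 6 and 17) stably with NCCRP1. All 6 share the parental line, and each library is 1 selected clone, so a difference between clones and an effect of the transgene can be separated only by the 3 clones per group. The labels name no low-oxygen treatment, so levels refer to the culture as harvested. Each clone was sequenced once, so a p-value here rests on these 6 libraries and nothing beyond them. In the limma test used below, each gene's own spread was also drawn toward that of genes at a similar level. In bulk RNA, fewer cells of a type and less RNA per cell cannot be told apart.

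The values are log2 RPKM, that is, log2 of reads scaled for transcript length and library size, so levels can be set beside each other between clones. Levels of different genes can be compared only as far as the gene lengths used, which are not known here, were right. A difference of 1 is a doubling, and a listed 0 means under 1 RPKM or no estimate. Libraries held 12477 to 12821 genes above 0, at an estimated 12290000 to 18070000 reads. NCCRP1 was listed at 0 in every mock clone and at 6.19, 8.07 and 6.71 in NCCRP1 clones 1, 6 and 17. Of 10 squamous markers, 9 were above 0 in all libraries, whereas the 5 leukocyte markers, 5 of 6 fibroblast markers and 3 of 4 endothelial markers were at 0 in all of them. The file names give the sequencing run: 15 for mock 1, mock 4 and NCCRP1 1, and 14 for mock 5, NCCRP1 6 and NCCRP1 17. Below, per-clone values are given in the order mock 1, 4 and 5, then NCCRP1 1, 6 and 17.

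Hypoxia-inducible factor 1 (HIF-1) is a dimer of an oxygen-controlled alpha subunit, encoded by HIF1A, and a stable beta subunit. In normal oxygen, prolyl hydroxylases mark the alpha subunit for destruction by the VHL ubiquitin ligase, so its activity is set largely at the protein level and is read out through its targets. Many of those targets encode glucose transporters and glycolytic enzymes, and carcinoma cells, squamous ones included, often keep this pathway active in oxygen, exporting lactate.

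HIF-1 binds DNA at a short core, ACGTG or, with a G in place of the first letter, GCGTG, inside a hypoxia response element. Promoter sequences are shown for 5 members to let the core be seen in place: ALDOC, PFKP and PFKFB3, the members whose mock and NCCRP1 clones did not overlap, and CA9 and PGK1, a variable and a steady member. Each is the stretch of 250 bases before a RefSeq transcript start in GRCh38.p14, on the gene's own strand, and capitals mark the core motifs ACGTG and GCGTG found on either strand. That build differs from the hg19 build named for the deposited values.
ALDOC: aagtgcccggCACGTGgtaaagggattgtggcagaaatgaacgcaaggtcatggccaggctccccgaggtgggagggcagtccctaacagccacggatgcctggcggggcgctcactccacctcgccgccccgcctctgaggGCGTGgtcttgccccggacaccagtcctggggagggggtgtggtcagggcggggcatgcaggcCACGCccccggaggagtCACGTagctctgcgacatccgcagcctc
PFKP: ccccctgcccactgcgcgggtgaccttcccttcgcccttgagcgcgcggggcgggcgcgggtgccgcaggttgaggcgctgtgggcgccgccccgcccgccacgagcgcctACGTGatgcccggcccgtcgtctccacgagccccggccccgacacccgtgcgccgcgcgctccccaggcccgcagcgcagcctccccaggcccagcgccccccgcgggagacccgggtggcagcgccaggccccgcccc
PFKFB3: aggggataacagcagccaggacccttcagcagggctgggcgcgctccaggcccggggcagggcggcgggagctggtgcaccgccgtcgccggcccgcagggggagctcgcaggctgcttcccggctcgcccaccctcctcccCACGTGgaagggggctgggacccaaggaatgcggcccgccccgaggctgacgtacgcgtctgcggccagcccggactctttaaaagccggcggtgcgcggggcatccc
CA9: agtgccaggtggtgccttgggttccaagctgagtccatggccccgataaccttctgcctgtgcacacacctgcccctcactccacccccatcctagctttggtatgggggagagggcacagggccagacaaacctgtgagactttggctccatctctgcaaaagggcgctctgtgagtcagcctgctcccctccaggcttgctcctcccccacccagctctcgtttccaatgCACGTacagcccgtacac
PGK1: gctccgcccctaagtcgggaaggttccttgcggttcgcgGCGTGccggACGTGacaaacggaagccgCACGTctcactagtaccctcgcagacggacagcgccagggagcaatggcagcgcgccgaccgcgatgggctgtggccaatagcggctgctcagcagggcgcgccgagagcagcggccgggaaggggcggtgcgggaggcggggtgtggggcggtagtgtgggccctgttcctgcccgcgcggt

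These stretches lie at chr17:28576896-28577145 (minus strand) for ALDOC, chr10:3068939-3069188 for PFKP, chr10:6202682-6202931 for PFKFB3, chr9:35673678-35673927 for CA9 and chrX:78103998-78104247 for PGK1, the last 4 on the plus strand. In ALDOC, ACGTG matches began 240 and 28 bases before the start, with GCGTG matches at 108 and 45 bases. In PGK1, ACGTG matches began 202 and 183 bases before the start. The single ACGTG match lay 139 bases before this start of PFKP, 108 bases before this start of PFKFB3 and 18 bases before that of CA9. PFKP has 3 other start windows in the RefSeq table and PFKFB3 has 1 other, none with ACGTG.

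Windows of 300 bases (250 before to 50 after a start) were available for 29 of the 34 members, 57 windows in all. ACGTG was found on either strand in 21 of them (36.8%), against 25.8% of 13919 windows of tested genes and 21.4% of all 35116 windows. For GCGTG the share was 42.1% in the members, against 48.7% and 36.5%. Overlapping matches of one motif counted as 1 site, and members had 1.97 windows per gene against 1.43 for tested genes. Some windows of a gene overlap each other, so windows are not independent units. Counted by gene, 17 of the 29 members (58.6%) had ACGTG in a window, against 32.6% of tested genes and 24.9% of all genes with windows. Having more windows per gene gives members more places for a match in that count. The 17 members with ACGTG had a median difference between NCCRP1 and mock clones of 0.05 on the log2 scale, and the 10 tested members with windows but no ACGTG had a median of -0.11. A match is a description of these letters, and no binding was measured here.

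No member passed the test between NCCRP1 and mock clones. Of the 34, 31 were above 0 in all 6 libraries and were tested, and ADM (adrenomedullin, a vasodilator peptide), EGLN3 (a HIF prolyl hydroxylase) and SLC2A3 (the glucose transporter GLUT3) were listed at 0 in all 6. The test was limma across 12737 genes with p-values adjusted by Benjamini-Hochberg and a cutoff of 0.05, which called 0 of 31 members and 13 genes in all (0.102%), with 0 members against 0.0707% of genes higher and 0.0314% lower in NCCRP1 clones. At an unadjusted p under 0.05 it marked 2 members, ALDOC and HIF1A, against 7.33% of all genes. Mock and NCCRP1 clones did not overlap for 3 members (9.68%), against 12.8% of all genes tested, a share near the background. Of these 3, 2 were higher in NCCRP1 clones (ALDOC and PFKP, background 5.71%) and 1 was lower (PFKFB3, background 7.05%).

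Means were higher in NCCRP1 clones for 16 members and lower for 15, beside a higher mean in 46.7% of all genes tested. The median difference (NCCRP1 minus mock) was 0.03 over the members and -0.02 over all genes tested. The members' median absolute difference was 0.171, against 0.141. The members' within-group SD had a median of 0.175 and ran from 0.0432 to 0.662, against a median of 0.220 over the 11927 genes above 0 in every library. CA9 had the widest spread, at 2.85-fold between the highest and the lowest clone, followed by HIF1A at 2.32-fold and ALDOC at 2.07-fold. PGK1 and GPI varied least, each by 1.11-fold over the 6 clones.

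**Figure D1:**
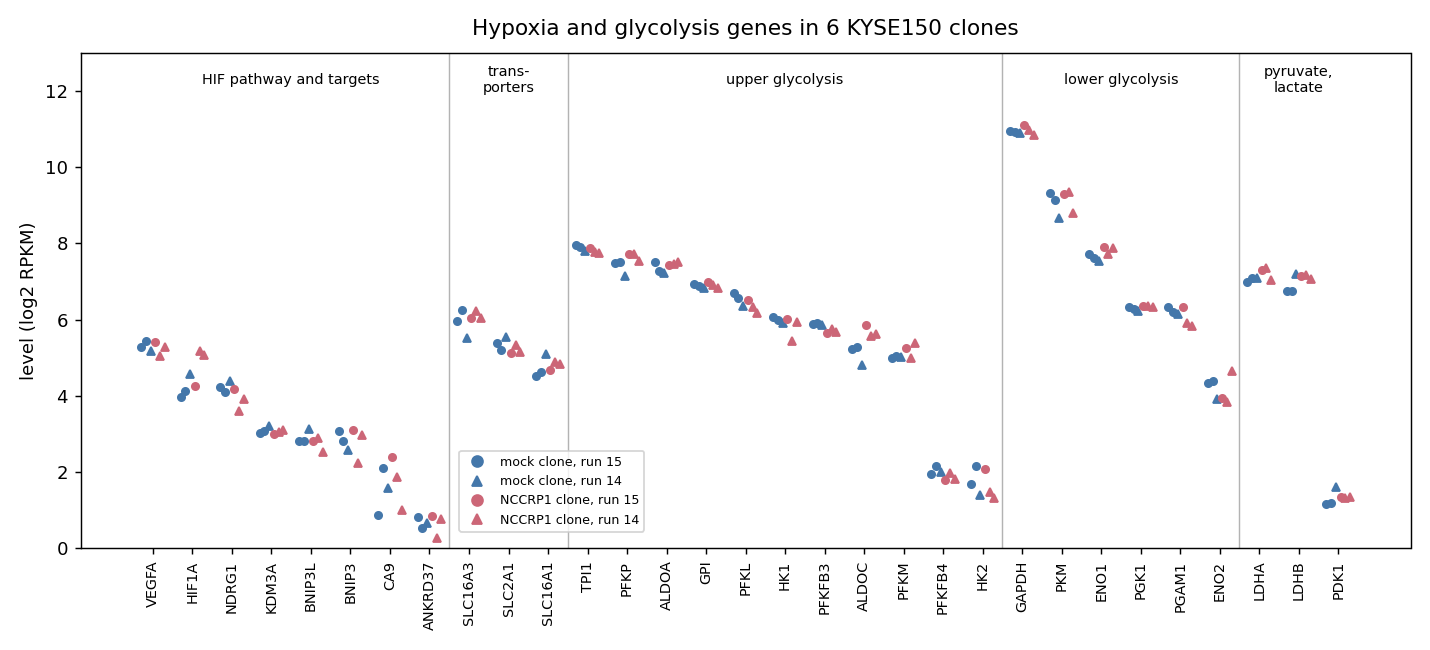
Log2 RPKM (vertical axis) of the 31 members above 0, grouped by role along the horizontal axis, with 1 point per clone (blue for mock, red for NCCRP1, circles for run 15 and triangles for run 14). GAPDH stands highest and ANKRD37 lowest, and for most members the 6 points lie close together beside the distances between genes.

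The HIF branch had 10 listed and 8 tested members. Mean levels were higher in NCCRP1 clones for 2 and lower for 6, with a median difference of -0.06, and no member's groups were apart. HIF1A (Entrez 3091), the oxygen-controlled subunit, stood at 3.97, 4.11 and 4.58 in mock and 4.25, 5.19 and 5.06 in NCCRP1 clones. NCCRP1 clones 6 and 17 were above every mock clone, whereas NCCRP1 clone 1 lay among them. The means were 4.22 ± 0.32 and 4.83 ± 0.51 (SD, n = 3 each), a difference of 0.61 or 1.53-fold (SE 0.25, 95% interval 0.05 to 1.17, limma adjusted p = 0.616). Levels were also ordered by run: every run 14 clone was higher than every run 15 clone, and the difference was 0.20 within run 15 and 0.55 within run 14. With run as a term in the fit it was 0.38.

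VEGFA, the secreted growth factor of blood vessels and the best known HIF target, stood at 5.29, 5.43 and 5.18 in mock and 5.40, 5.04 and 5.28 in NCCRP1 clones. The groups overlapped and differed by -0.06 (95% interval -0.39 to 0.26, limma adjusted p = 0.984). CA9, which encodes the cell-surface carbonic anhydrase IX that handles acid outside the cell, was low and uneven, at 0.87, 2.10 and 1.57 in mock and 2.38, 1.85 and 0.99 in NCCRP1 clones. Both groups held a clone near 1 and a clone above 1.8, and the difference of 0.23 had an interval of -0.64 to 1.10 (limma adjusted p = 0.967). Within runs it was 0.90 in run 15 and -0.15 in run 14. Reads for CA9 were roughly estimated at 38 to 157 per library, a counting error near 16.3% for the lowest clone. Depth was itself estimated and the lengths behind the RPKM are not known, so this error could be larger. CA9 exons share 643 bases with ARHGEF39 on the opposite strand, and whether counting used strand is not given in the sources used here, so reads of such pairs cannot be told apart.

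NDRG1, a stress-responsive gene induced by low oxygen, stood at 4.22, 4.11 and 4.38 in mock and 4.18, 3.61 and 3.91 in NCCRP1 clones. NCCRP1 clones 6 and 17 were below all mock clones, and NCCRP1 clone 1 was not. The difference was -0.34 (SE 0.17, 95% interval -0.71 to 0.04, limma adjusted p = 0.726), with 0.01 within run 15 and -0.62 within run 14. It was -0.19 without NCCRP1 clone 6. BNIP3L, a mitophagy receptor, was at 2.82, 2.82 and 3.12 against 2.80, 2.88 and 2.52, a difference of -0.19 with overlapping groups. Its relative BNIP3, of the same function, was at 3.08, 2.82 and 2.57 against 3.09, 2.25 and 2.96. It was lowest in NCCRP1 clone 6, where the median deviation of its 30 nearest neighbours on chromosome 10 from their mean over the clones was -0.46. With each library's neighbour shift subtracted, the BNIP3 difference moved from -0.06 to 0.13. ANKRD37, an ankyrin-repeat gene used as a hypoxia marker, ranged from 0.26 to 0.83, and its exons share 909 bases with UFSP2 on the opposite strand. KDM3A, a HIF-induced histone demethylase, was nearly level, from 2.999 to 3.21.

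**Figure D2:**
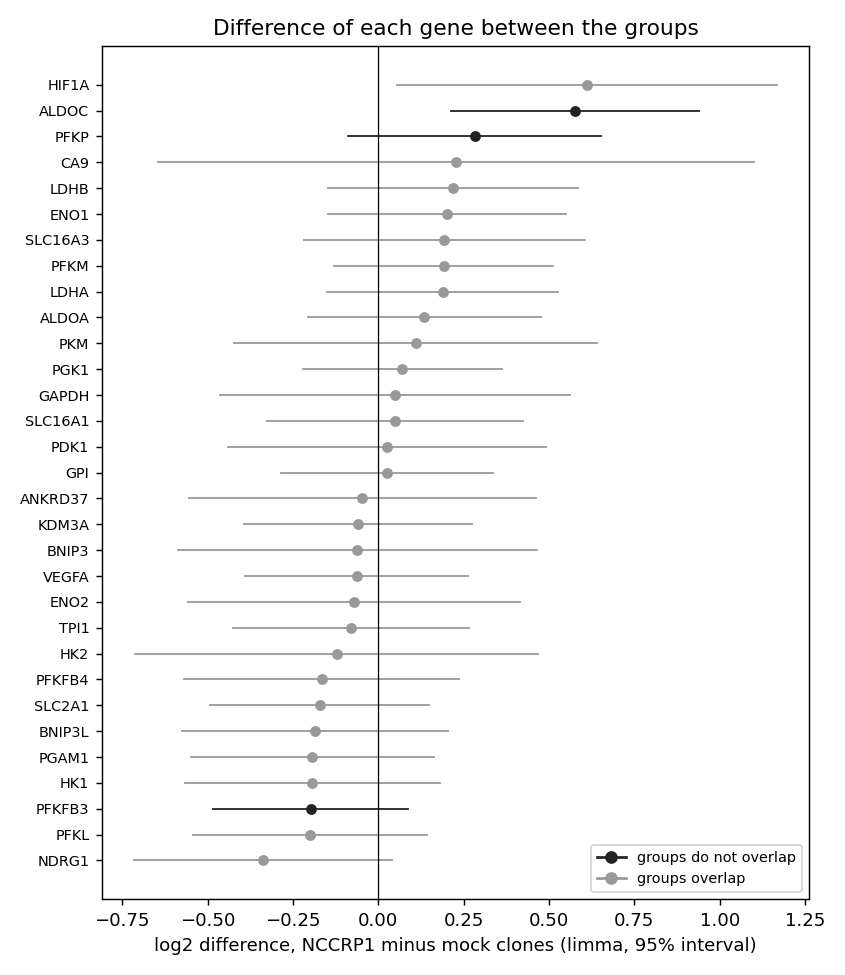
Fitted log2 difference (NCCRP1 minus mock) with its 95% interval for each of the 31 tested members, ordered by size, with black for the 3 members whose groups did not overlap. The intervals of ALDOC and HIF1A lie wholly above 0, the other 29 include 0, and no member passed after adjustment over all genes.

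Among the 4 transporters, 3 were tested, 2 with a higher and 1 with a lower mean in NCCRP1 clones. SLC2A1, which encodes the main glucose transporter GLUT1, was at 5.39, 5.19 and 5.53 in mock and 5.12, 5.34 and 5.14 in NCCRP1 clones. The ranges overlapped, with a difference of -0.17 (95% interval -0.49 to 0.15, limma adjusted p = 0.903). With SLC2A3 listed at 0, SLC2A1 was the GLUT gene among the members that was seen, at 39.0 RPKM (geometric mean of the 6 clones). SLC16A3, the lactate exporter MCT4, was at 5.97, 6.24 and 5.51 in mock and 6.04, 6.23 and 6.03 in NCCRP1 clones. Mock clone 5 was the low one, and the difference was 0.19 (95% interval -0.22 to 0.60, limma adjusted p = 0.922). It was -0.07 within run 15 and 0.62 within run 14, and 482 exonic bases are shared with CSNK1D on the opposite strand. SLC16A1, the lactate carrier MCT1, ranged from 4.52 to 5.09, with its highest value in mock clone 5 and a group difference of 0.05.

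Upper glycolysis, from hexokinase to triose phosphate isomerase with the enzymes that set fructose 2,6-bisphosphate, held all 3 members whose groups did not overlap. That is 27.3% of the members in upper glycolysis, against 12.8% of all genes tested, a contrast that was not itself tested. Of its 11 members, 5 had a higher and 6 a lower mean in NCCRP1 clones, with a median difference of -0.08. ALDOC (Entrez 230), the brain-type aldolase isoenzyme, stood at 5.22, 5.29 and 4.80 in mock and 5.85, 5.57 and 5.62 in NCCRP1 clones. Every NCCRP1 clone was above every mock clone. The means were 5.10 ± 0.27 and 5.68 ± 0.15 (SD, n = 3 each), a difference of 0.58 or 1.49-fold (SE 0.16, 95% interval 0.21 to 0.94). This was larger than either group's SD but did not pass over all genes (limma unadjusted p = 0.00515, adjusted p = 0.360, and 0.131 to 0.612 over the alternative settings). The difference was 0.59 within run 15 and 0.80 within run 14.

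PFKP (Entrez 5214), the platelet-type phosphofructokinase, was at 7.48, 7.51 and 7.14 in mock and 7.72, 7.73 and 7.53 in NCCRP1 clones. The groups were apart by a narrow gap between mock clone 4 and NCCRP1 clone 17, and the difference was 0.28 (SE 0.17, 95% interval -0.09 to 0.65, limma adjusted p = 0.802), or 0.16 without mock clone 5. PFKFB3 (Entrez 5209), which makes the phosphofructokinase activator fructose 2,6-bisphosphate, was at 5.89, 5.91 and 5.86 in mock and 5.64, 5.76 and 5.66 in NCCRP1 clones. All NCCRP1 clones were lower, in a gene whose mock clones had an SD of only 0.03, and the difference was -0.20 (SE 0.13, 95% interval -0.48 to 0.09, limma adjusted p = 0.836). The difference had the same sign in both runs for both genes: 0.22 and 0.49 for PFKP, and -0.26 and -0.15 for PFKFB3, in runs 15 and 14.

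HK1, the hexokinase that phosphorylates glucose in most cells, was at 6.06, 5.98 and 5.92 in mock and 6.02, 5.44 and 5.93 in NCCRP1 clones. NCCRP1 clone 6 was the lowest, and the neighbours of HK1 on chromosome 10 stood at -0.36 there. The difference was -0.19 (95% interval -0.57 to 0.18, limma adjusted p = 0.910), and -0.05 with neighbour shifts subtracted. It was -0.015 without NCCRP1 clone 6 and -0.30 without NCCRP1 clone 1. PFKP and PFKFB3 lie on chromosome 10 too, with neighbour shifts between the groups of -0.03 and 0.01. ALDOA, the main aldolase, was at 7.51, 7.27 and 7.23 in mock and 7.44, 7.45 and 7.52 in NCCRP1 clones, a difference of 0.13 with overlapping groups. PFKL, the liver-type phosphofructokinase, ranged from 6.37 to 6.71 in mock and from 6.18 to 6.52 in NCCRP1 clones. PFKM, the muscle type, ranged from 5.00 to 5.06 and from 4.99 to 5.40, and shares 628 exonic bases with SENP1 on the opposite strand. GPI (glucose phosphate isomerase) and TPI1 (triose phosphate isomerase) differed by 0.03 and -0.08. The low members HK2, the inducible hexokinase, and PFKFB4, a relative of PFKFB3, differed by -0.12 and -0.17. PFKFB4 shares 289 exonic bases with UCN2 on the same strand, so counting by strand would not separate their reads. UCN2 was at 2.88, 2.96 and 2.57 in mock and 2.50, 2.12 and 2.19 in NCCRP1 clones.

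**Figure D3:**
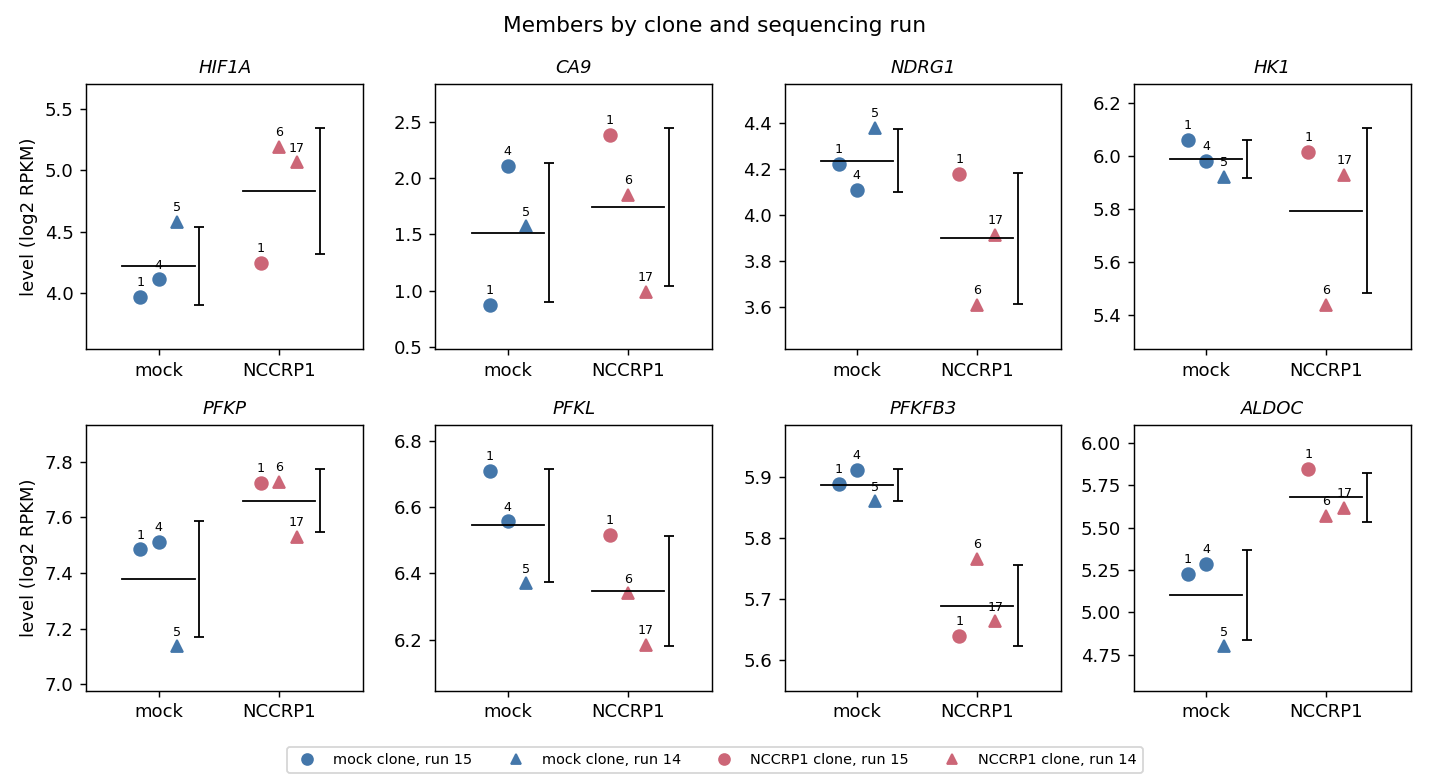
Log2 RPKM by clone for 8 members, each panel with its own vertical axis that does not start at 0. Points are clones numbered as in the labels (circles for run 15, triangles for run 14), horizontal lines are group means and the brackets are ± 1 SD over 3 clones, and the mock and NCCRP1 points do not overlap in the PFKP, PFKFB3 and ALDOC panels.

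Lower glycolysis, from GAPDH to pyruvate kinase, held the most abundant members. Of 6 members, 4 had a higher and 2 a lower mean in NCCRP1 clones, with a median difference of 0.06 and no groups apart. GAPDH, the dehydrogenase often used as a reference gene, was at 10.97, 10.92 and 10.89 in mock and 11.11, 10.98 and 10.84 in NCCRP1 clones, or 1981 RPKM as a geometric mean of 6. The difference was 0.05 (95% interval -0.46 to 0.56, limma adjusted p = 0.992), and NCCRP1 clones held both the highest and the lowest value. PKM, pyruvate kinase, was next at 548 RPKM and less even: 9.33, 9.13 and 8.67 in mock and 9.30, 9.35 and 8.81 in NCCRP1 clones. Its low clones were mock 5 and NCCRP1 17, 1 in each group. ENO1, the main enolase, was at 7.74, 7.62 and 7.54 against 7.91, 7.72 and 7.87, a difference of 0.20 (95% interval -0.15 to 0.55, limma adjusted p = 0.880).

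PGK1, the kinase that makes the first ATP of the pathway, was the steadiest member, from 6.22 to 6.37. Its difference of 0.07 had an interval of -0.22 to 0.36. PGAM1, phosphoglycerate mutase, was at 6.32, 6.19 and 6.16 against 6.33, 5.92 and 5.84. Its neighbours on chromosome 10 stood at -0.43 in NCCRP1 clone 6, and its difference moved from -0.19 to -0.03 with neighbour shifts subtracted. ENO2, the neuronal enolase, ranged from 3.93 to 4.39 in mock and from 3.84 to 4.65 in NCCRP1 clones. The neuron and muscle markers MYH7, ACTA1 and SYP were at 0 in all libraries, and RBFOX3 was not.

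LDHA and LDHB, the lactate dehydrogenase subunits, and PDK1, the kinase that inactivates pyruvate dehydrogenase, all had higher means in NCCRP1 clones, with a median difference of 0.19. LDHA was at 6.98, 7.08 and 7.08 in mock and 7.31, 7.36 and 7.04 in NCCRP1 clones, a difference of 0.19 (95% interval -0.15 to 0.53, limma adjusted p = 0.890). NCCRP1 clone 17 lay among the mock clones. LDHB was at 6.75, 6.76 and 7.20 against 7.15, 7.16 and 7.06, with mock clone 5 above all others. Its difference was 0.22 (95% interval -0.15 to 0.58), being 0.39 within run 15 and -0.09 within run 14. PDK1 was low, from 1.16 to 1.595, and differed by 0.03.

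Isoenzymes catalyse the same step, so the share each took of the RPKM summed over the members of its family was computed in every clone. The same was done for the lactate carriers SLC16A1 and SLC16A3 and for the mitophagy receptors BNIP3 and BNIP3L, which are not enzymes, giving 8 families in all. These shares rest on gene lengths that are not known here. The dominant family member was the same in all 6 clones for 6 families. HK1 held 93.4% to 96.0% of the HK1 and HK2 sum, PFKFB3 93.1% to 93.9% of the PFKFB3 and PFKFB4 sum, and ENO1 90.3% to 94.0% of the ENO1 and ENO2 sum. ENO3, a muscle enolase that is no member and shares 111 exonic bases with the abundant PFN1 on the opposite strand, stood at 14.9 RPKM and is not in that sum. PFKFB4 shares 289 exonic bases with UCN2 on the same strand, so its share could include reads of UCN2. ALDOA, PFKP and SLC16A3 were the largest of their families in all clones as well. LDHA and LDHB were close to equal, LDHA taking 47.9% to 55.5% and the larger part in 4 of 6 clones. BNIP3 took 39.2% to 57.6% of the sum with BNIP3L and was the larger in 4 of 6.

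In the phosphofructokinase family the shares of PFKP and PFKL did not overlap between the groups. PFKP held 56.7%, 58.9% and 55.04% of the family's RPKM in mock and 62.0%, 65.3% and 61.7% in NCCRP1 clones. The means were 56.9% ± 1.92 and 63.0% ± 1.995 (SD, n = 3 each), a difference of 6.08 percentage points. PFKL held 33.1%, 30.4% and 32.4% against 26.8%, 24.9% and 24.3%. Every NCCRP1 clone had a larger PFKP share and a smaller PFKL share than every mock clone. The difference of means was larger than the SDs. Shares within a family add up to the whole, so the PFKP and PFKL shares are not independent of each other. PFKM held 11.2% on average in mock and 11.7% in NCCRP1 clones, with overlapping groups. In level, PFKL overlapped between the groups, with a difference of -0.20 (limma adjusted p = 0.879). The log2 ratio of PFKP to PFKL was 0.78, 0.95 and 0.77 in mock and 1.21, 1.39 and 1.35 in NCCRP1 clones, a difference of 0.48, with 0.34 within run 15 and 0.60 within run 14.

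The aldolase shares were also apart. ALDOC held 17.0%, 20.2% and 15.7% of the ALDOA and ALDOC sum in mock and 24.9%, 21.3% and 21.1% in NCCRP1 clones. The means were 17.6% ± 2.34 and 22.5% ± 2.14 (SD, n = 3 each), a difference of 4.83 points without overlap. The log2 ratio of ALDOA to ALDOC was lower in NCCRP1 clones by a difference of -0.44, and by -0.54 within each run. For both families the exact permutation test, two-sided, gave p = 0.1, the smallest that 3 against 3 clones allow, and 0.4 after Benjamini-Hochberg adjustment over the 8 families. These shares use the same PFKP and ALDOC values as the differences above. For the other 6 families the groups overlapped. SLC16A3, for example, held 73.2%, 75.3% and 57.2% of the SLC16A1 and SLC16A3 sum in mock and 72.0%, 71.7% and 69.8% in NCCRP1 clones, mock clone 5 being the low one.

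**Figure D4:**
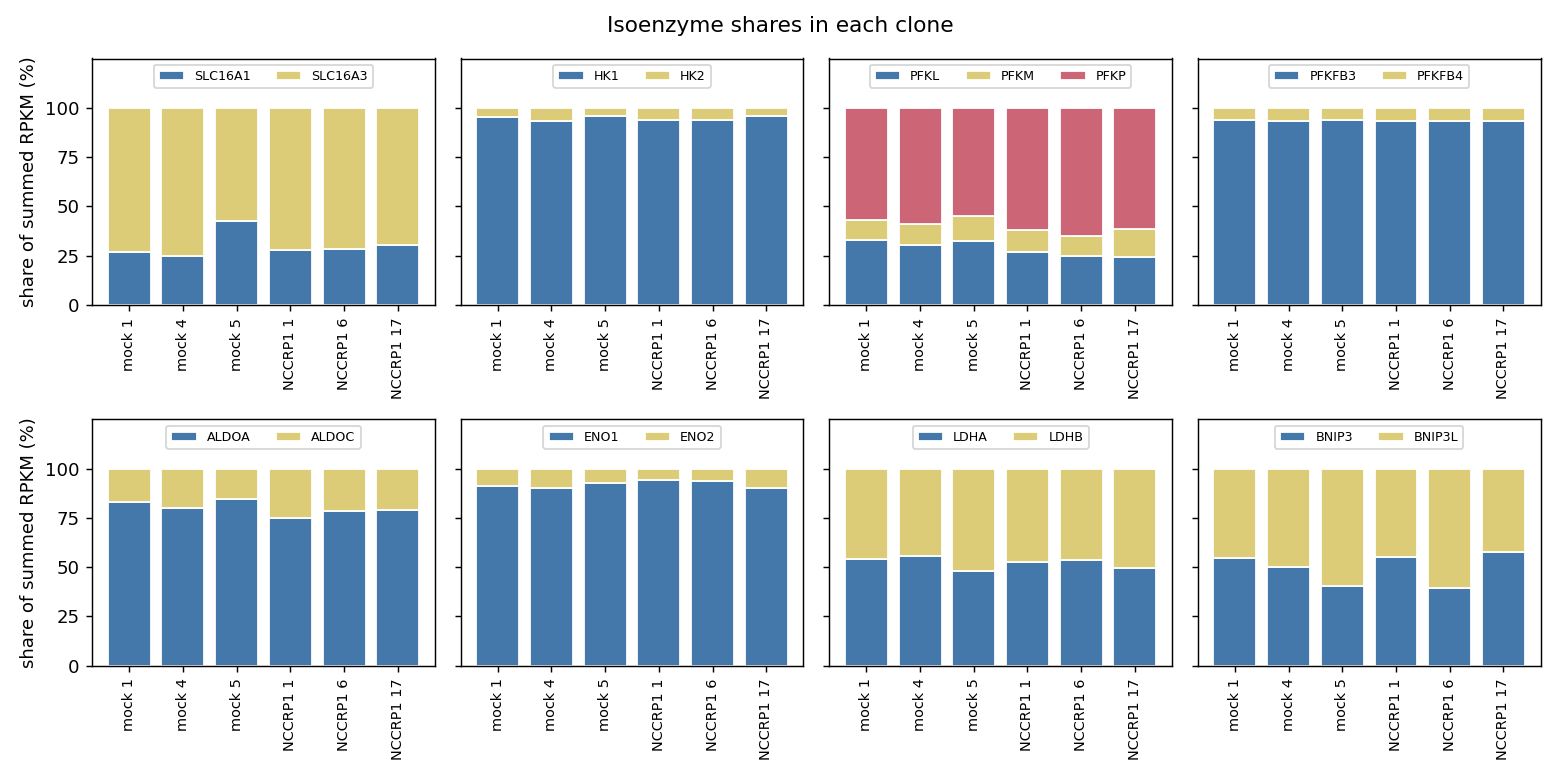
Share of the summed RPKM of each family of isoenzymes, lactate carriers or mitophagy receptors, in percent, by clone. Each bar is 1 clone. PFKP takes 61.7% or more in the NCCRP1 clones and 58.9% or less in the mock clones, and ALDOC 21.1% or more against 20.2% or less.

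Total output of these transcripts overlapped between the groups. Summed over 17 glycolytic enzymes and lactate dehydrogenases, RPKM came to 4249, 4040 and 3770 in mock and 4563, 4284 and 3866 in NCCRP1 clones. Means were 4019 ± 240.3 and 4238 ± 350.5 (SD, n = 3 each), and the exact permutation test, two-sided, gave p = 0.4. GAPDH alone supplied 47.1% to 50.4% of this sum and PKM 10.8% to 15.2%. After these came TPI1 at 229 RPKM, ENO1 at 212, PFKP at 183 and ALDOA at 169, as geometric means of the 6 clones. LDHA and LDHB stood at 141 and 129 RPKM. Near-identical processed pseudogenes can take or lend reads to such genes: of 138 pseudogenes of members in the tables, 64 of them of GAPDH, 135 were listed at 0 in all libraries. TPI1P3 (2.74 to 3.30), TPI1P2 (1.57 to 1.99) and, in mock clone 4 only, PGAM1P5 (0.03) were not. How reads that match several places were counted is not known here. A pseudogene at 0 therefore does not show that its parent gene kept all its reads. The size of any such error, for TPI1 or the others, was not tested.

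Differences between clones did not follow the group for most members. Mock clone 5 was the lowest of the 6 for 8 members, among them SLC16A3, PFKP, ALDOA, ALDOC, ENO1 and PKM, and the highest for 7, among them SLC2A1, SLC16A1, LDHB and PDK1. NCCRP1 clone 1 was the highest for 9, and NCCRP1 clone 6 the lowest for 7. Runs 15 and 14 did not overlap for 8 of 31 members (25.8%), against 19.4% of all genes tested. HIF1A and SLC16A1 were higher in run 14, and VEGFA, HK1, HK2, PFKL, TPI1 and PGAM1 were lower. The mean difference over the 31 members was 0.094 within run 15 and 0.031 within run 14. Run 15 held 2 mock clones and 1 NCCRP1 clone, and run 14 the reverse, so the part of run in these differences was not tested beyond these values.

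Other genes of the pathway, in 6 lists, gave no gene past the test in either direction. The counts of genes with groups apart are to be read beside 12.8% of all genes tested. Among 14 tested HIF regulators of 16, 3 had groups apart (21.4%) and the median difference was -0.04. CITED2, which competes with HIF-1 for its coactivators, was higher by 0.45 (limma adjusted p = 0.393). The coactivators CREBBP and EP300 were at -0.31 and -0.27 (limma adjusted p = 0.672 and 0.824). Among 29 tested further HIF targets of 39, 6 had groups apart (20.7%) and the median was 0.04. BHLHE40, a transcriptional repressor, and IGFBP3, a binder of insulin-like growth factors, differed by 0.42 and 0.88 (limma adjusted p = 0.631 for both). The groups were apart for BHLHE40 but overlapped for IGFBP3, which differed by 0.15 within run 15 and 1.60 within run 14.

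Among 11 tested of 22 other glycolytic enzymes and regulators, 2 had groups apart (18.2%), both higher in NCCRP1 clones: BPGM, which makes 2,3-bisphosphoglycerate (0.59), and PFKFB2, another maker of fructose 2,6-bisphosphate (0.38). PGAM4, a retrocopy of PGAM1 that may share its reads, was at -0.28. Of 15 other transporters of glucose and lactate, 7 were tested and 2 had groups apart (28.6%). BSG, the chaperone that brings the lactate carriers to the membrane, was at 8.14, 8.06 and 7.85 in mock and 8.78, 8.61 and 8.43 in NCCRP1 clones, a difference of 0.59 (limma adjusted p = 0.399). Its neighbours on chromosome 19 differed by 0.54, and 0.06 of the BSG difference was left with their shift subtracted. SLC2A12 and SLC2A6, sugar transporters, differed by 0.61 and 0.73 (limma adjusted p = 0.462 and 0.595). The groups were apart for SLC2A12 but overlapped for SLC2A6, which differed by 0.03 within run 15 and 1.56 within run 14. SLC2A12 exons share 1736 bases with TBPL1 on the opposite strand, a gene that stood at 1.63 to 2.37.

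At the entry of pyruvate into mitochondria, 15 of 17 genes were tested and 1 had groups apart (6.67%). MPC1, a subunit of the mitochondrial pyruvate carrier, was at 3.18, 3.01 and 3.52 in mock and 2.60, 2.26 and 2.47 in NCCRP1 clones. Every NCCRP1 clone was lower, with a difference of -0.79 (SE 0.19, limma adjusted p = 0.224). PDPR, which regulates the phosphatase of pyruvate dehydrogenase, and PC, pyruvate carboxylase, were at -0.36 and -0.24 with overlapping groups. The neighbours of PDPR on chromosome 16 differed by -0.28, and its difference was -0.08 with their shift subtracted. In the pentose phosphate pathway, 8 of 9 genes were tested, and 2 of them, H6PD and TKT, had groups apart (25%), by 0.22 and 0.11, while PGLS was at -0.24. The medians of the last 4 lists lay between -0.01 and 0.06, beside -0.02 over all genes.

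**Figure D5:**
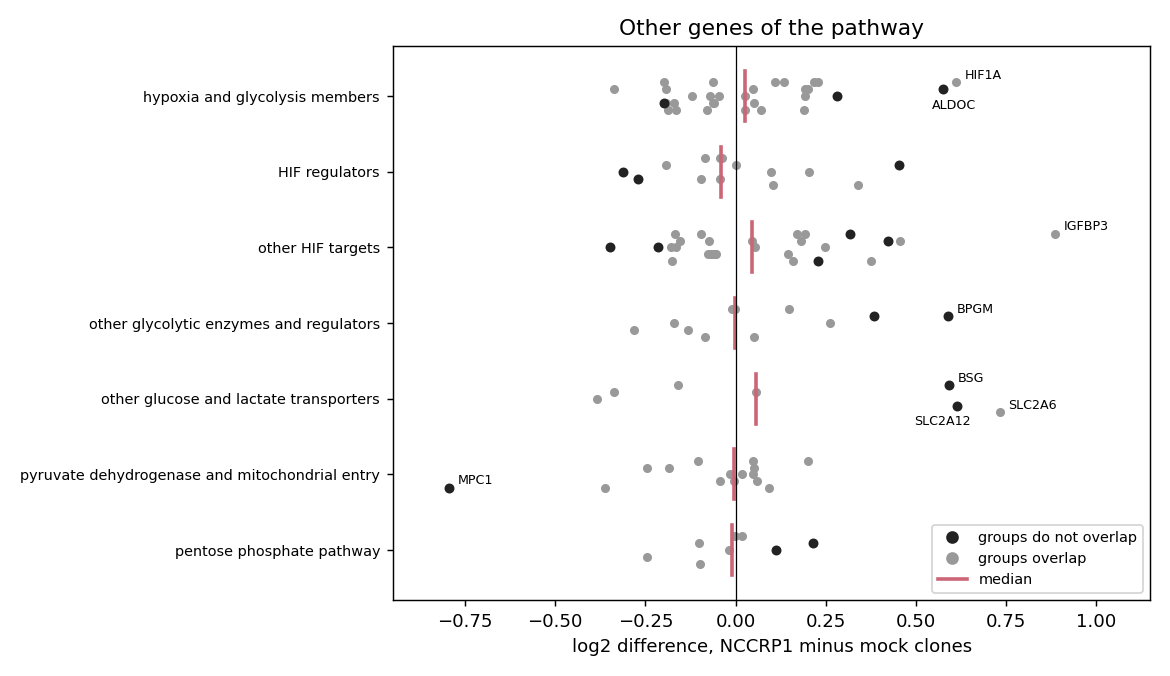
Log2 difference (NCCRP1 minus mock) of tested genes among the members and in the 6 other lists, 1 point per gene, black where the groups did not overlap, with the median of each list as a red line. The medians lie near 0. IGFBP3 (0.88, groups overlapping) and MPC1 (-0.79, groups apart) are the farthest from 0 among the genes plotted.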

How the data were processed

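RNA of 6 KYSE150 clones was sequenced as ribosome-depleted Ion Torrent libraries, per the labels' protocols. The authors deposited 1 log2 RPKM value per gene and library: the column is headed RPKM, per the file headers, but 2 to the power of each value, times exonic length in kilobases, summed to 1601100 to 1647790 per library, against at least 15169200 if the logarithm were natural. The submitters' processing notes name hg19 and bedtools 2.25.0, without roles. The aligner, gene lengths and counting strand were not given in the sources used here. A listed 0 is under 1 RPKM or without an estimate.

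Symbols for 37997 of 40448 Entrez IDs came from RefSeq (GRCh38.p14). Depth was estimated from whole-read steps in low microRNA values, of which 23.4% to 33.1% lay within 0.005 of a whole read, too few to recover counts. Values were fitted as deposited in limma 3.58.1 (R 4.3.3; trend, robust, group only, two-sided) for genes above 0 in at least 3 libraries, without a pseudocount. The fit was tested on simulated data. Shares within families were compared by exact permutation. Alternatives changed the pseudocount, filter, scaling, run term and libraries, and, added after seeing the data, removed GC trends or the median deviation of the 30 nearest genes. Exon overlaps, lengths and GC came from GENCODE v29. Described with per-clone values were members with groups apart, the 5 lowest p-values, each family's top member, HIF1A, VEGFA, CA9 and SLC2A1. Per-clone values of other members were added after they were seen. From each other list, up to 3 genes with the lowest p were named, and EP300 and ENO3 were added after their values were seen. Of these, 1 gene is counted in its list's values but not named or plotted here. The members and lists were chosen with earlier results of these data known.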

Additional observations from a re-analysis of the deposited data

How the results depend on the processing

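No member passed under any of the 16 alternative settings. The count of all genes passing, 13 as reported, was 4 with log2(RPKM + 1), 1 with log2(RPKM + 0.1), 3 without a filter, 7 with genes above 0 in all 6 libraries, 5 without robust variance, 2 with run as a term, 4 with GC trends removed and 8 with neighbour shifts removed. Leaving out 1 clone gave 0 to 29 genes: 5, 16 and 0 without mock clone 1, 4 or 5 (1363 genes at an unadjusted p under 0.05 in the last), and 29, 6 and 2 without NCCRP1 clone 1, 6 or 17. The cause was not tested. The members' median difference ranged from -0.027 (quantile scaling) to 0.058 (run term), and from -0.016 to 0.040 when 1 clone was left out. With run as a term the VEGFA difference was 0.0080. Leaving out 1 clone gave -0.14 to 0.035 for VEGFA, -0.094 to 0.60 for CA9 and -0.0058 to 0.36 for SLC16A3. Differences in share, in percentage points, then ranged from -3.11 to 5.93 for SLC16A3, -0.987 to 0.247 for HK1, -0.337 to 0.0515 for PFKFB3, -2.77 to 1.04 for LDHA and -7.87 to 1.73 for BNIP3L, and from 4.93 to 7.07 for PFKP. By the rough estimate of reads, CA9 rested on about 38 reads at the lowest clone. That is a counting error near 16.3%, which could be larger, beside a 2.85-fold range over the clones. No paired analysis was made because the labels name no pairs of mock and NCCRP1 clones. The clones numbered 1 in the 2 groups are different clones.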
